A study of Mus musculus with 18 samples.

Results

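Arc, Homer1, Plk2, Plk3 and Rem2 are genes that neurons switch on after activity and whose proteins act at synapses rather than as transcription factors. They were taken as every probe set annotated to 1 of these symbols alone, which gave 7 probe sets for 5 of the 12394 genes named on the array. The array held 22690 probe sets, of which 12674 passed a filter on dim signal, with log2 values over 4 on 3 or more arrays. Of the 7 member probe sets 5 passed, covering Arc, Homer1 (1425710_a_at and 1421768_a_at), Plk2 and Rem2. The Plk3 probe set and another Homer1 probe set, 1425671_at, did not pass and were not among the probe sets tested with limma.

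Arc protein gathers at active synapses and, with the endocytic proteins endophilin and dynamin, removes AMPA-type glutamate receptors from the membrane. Long Homer1 proteins link group I metabotropic glutamate receptors to Shank scaffolds and to intracellular calcium channels, and a short activity-induced form, Homer1a, breaks these links. Plk2 is a polo-like kinase that weakens synapses after prolonged activity by driving the loss of a spine scaffold, Plk3 is a related kinase, and Rem2 is a small GTP-binding protein of the RGK family that inhibits voltage-gated calcium channels. In the striatum, cocaine raises dopamine and engages calcium and cyclic AMP signalling in medium spiny neurons, and CaMKIV is a calcium-activated kinase whose known targets include CREB, a transcription factor that binds the cyclic AMP response element (CRE).

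The study asked how loss of CaMKIV affects the genes that cocaine induces in the striatum. Each of the 18 arrays measured total RNA from the striatum with the nucleus accumbens of 1 littermate mouse, 10 to 20 weeks old, caged singly and handled for 5 days. The 4 groups were control and mutant mice injected intraperitoneally with saline (3 per genotype) or with 25 mg/kg cocaine (6 per genotype), and tissue was taken after 1 hour. The labels call the animals control or mutant, and the sources used here give no allele, Cre, promoter, strain or sex. The titles number 12 animals in Arabic numerals, 3 per group, and the other 6, all given cocaine and 3 per genotype, in Roman numerals. In each cocaine group the replicates 1 to 3 are Arabic-numbered and the replicates 4 to 6 Roman-numbered, and all saline animals are Arabic-numbered. The separate description lines named the genotype and treatment of the title in 0 of 18 samples, so the groups rest on the titles.

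Camk4, the gene for CaMKIV, had 3 probe sets, of which 2 passed the filter and 1452572_at lay at the floor, near 2.02. The brightest, 1426167_a_at, averaged 7.65 ± 0.06 (SD, n = 3) on the log2 scale in control saline mice, 7.65 ± 0.10 (n = 6) in control cocaine mice, 7.30 ± 0.16 (n = 3) in mutant saline mice and 7.27 ± 0.27 (n = 6) in mutant cocaine mice. The mutant level after cocaine was lower by a log2 difference of -0.39 ± 0.10 (limma estimate ± SE, unadjusted p = 0.00190, adjusted p = 0.427). After saline it was lower by -0.35 ± 0.15 (unadjusted p = 0.0297), which did not pass after adjustment. The signal was well above the floor in the arrays labelled mutant. The other, 1421941_at, was lower by -0.75 ± 0.31 after cocaine (unadjusted p = 0.0268, adjusted p = 0.427) and by -0.23 ± 0.43 after saline (unadjusted p = 0.603). The sources used here do not say which part of the gene the mutation removes, so this level cannot check the labels fully. Medium spiny neuron markers were bright in every array, Penk at a mean of 13.9, Ppp1r1b at 13.4 and Drd2 at 11.6. Of the cortical neuron markers, Neurod6 averaged 3.12 and did not pass the filter, and Tbr1 averaged 3.64. The mean over the 3 cortical list genes that passed, Tbr1 among them, was 8.07, so the list was not dim throughout. In bulk tissue, fewer cells of a type and less RNA per cell cannot be told apart. Array medians ran from 4.98 to 5.19. Mutant cocaine replicate 5 stood apart in its actin 3′ minus 5′ probe set difference, a measure of how complete the labelled RNA was. That difference was 3.59, against 1.57 to 2.55 in the others. The Homer1 and Plk3 values of this array are named below. It also held the highest mutant Arc value, 11.39, and the highest Rem2 value, 10.09, and both enter the results for those genes.

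Promoter sequence is shown because CREB, a target of CaMKIV, binds CREs, and the members' windows differ in holding them. RefSeq windows upstream of the start (build GRCm38.p6) were found for 4 of the 5 members, in 5 windows. No window was found for Arc, so its promoter was not searched. The CRE was searched on both strands as its full palindrome TGACGTCA and as the half-site TGACG, which the palindrome contains once on each strand. Capitals mark the matches, and the 250 bases end just before the transcription start.
Plk2, chr13:110394794-110395043, plus strand: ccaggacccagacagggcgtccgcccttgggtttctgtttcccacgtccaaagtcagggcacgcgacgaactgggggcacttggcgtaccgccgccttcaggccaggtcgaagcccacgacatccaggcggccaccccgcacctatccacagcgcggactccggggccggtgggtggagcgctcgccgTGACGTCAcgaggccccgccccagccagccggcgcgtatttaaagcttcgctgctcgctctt
Homer1, first start, chr13:93303507-93303756, plus strand: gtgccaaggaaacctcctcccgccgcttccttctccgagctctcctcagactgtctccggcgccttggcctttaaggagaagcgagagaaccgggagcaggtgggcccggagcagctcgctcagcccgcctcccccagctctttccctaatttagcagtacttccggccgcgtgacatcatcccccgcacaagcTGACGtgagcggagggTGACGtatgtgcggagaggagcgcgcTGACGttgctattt
Rem2, chr14:54475850-54476099, plus strand: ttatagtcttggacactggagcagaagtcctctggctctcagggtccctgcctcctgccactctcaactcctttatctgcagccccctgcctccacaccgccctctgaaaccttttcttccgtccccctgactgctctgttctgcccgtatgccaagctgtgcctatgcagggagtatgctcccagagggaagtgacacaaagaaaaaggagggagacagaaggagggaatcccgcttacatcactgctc

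Plk2 held 1 palindrome, from -62 to -55 relative to the start, which 1.55% of the 32851 windows in the table also held. The first Homer1 start held no palindrome but 3 half-sites, beginning at -56, -40 and -14. At least 1 half-site occurred in 17.8% of all windows and 3 or more in 0.688%. The window of a second annotated Homer1 start, chr13:93307784-93308033, held 0 matches, as did the Rem2 window. The Plk3 window (chr4:117133964-117134213, minus strand) held 2 half-sites. The CArG box, the site of serum response factor, had 0 matches in the 5 member windows and was found in 1.47% of all windows. A match is a run of letters, and whether any factor binds there was not measured.

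Arc rose after cocaine in both genotypes. Its log2 values in saline control mice were 7.89, 7.52 and 7.46, and in saline mutant mice 6.37, 7.38 and 7.66. After cocaine they ran from 10.07 through a median of 10.99 to 11.55 in the 6 control mice, and from 8.48 through a median of 10.51 to 11.39 in the 6 mutant mice. All 12 cocaine arrays therefore lay above all 6 saline arrays, which held for 0.41% of the probe sets tested in the same direction. Averaged over the genotypes, the cocaine response was a log2 difference of 2.96 ± 0.37 (SE; 95% confidence interval 2.17 to 3.75), a 7.78-fold rise (limma, adjusted p = 8.34e-04). Arc was 1 of 28 probe sets called in that comparison, 0.221% of those tested, and 1 of the 5 member probe sets.

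**Figure D1:**
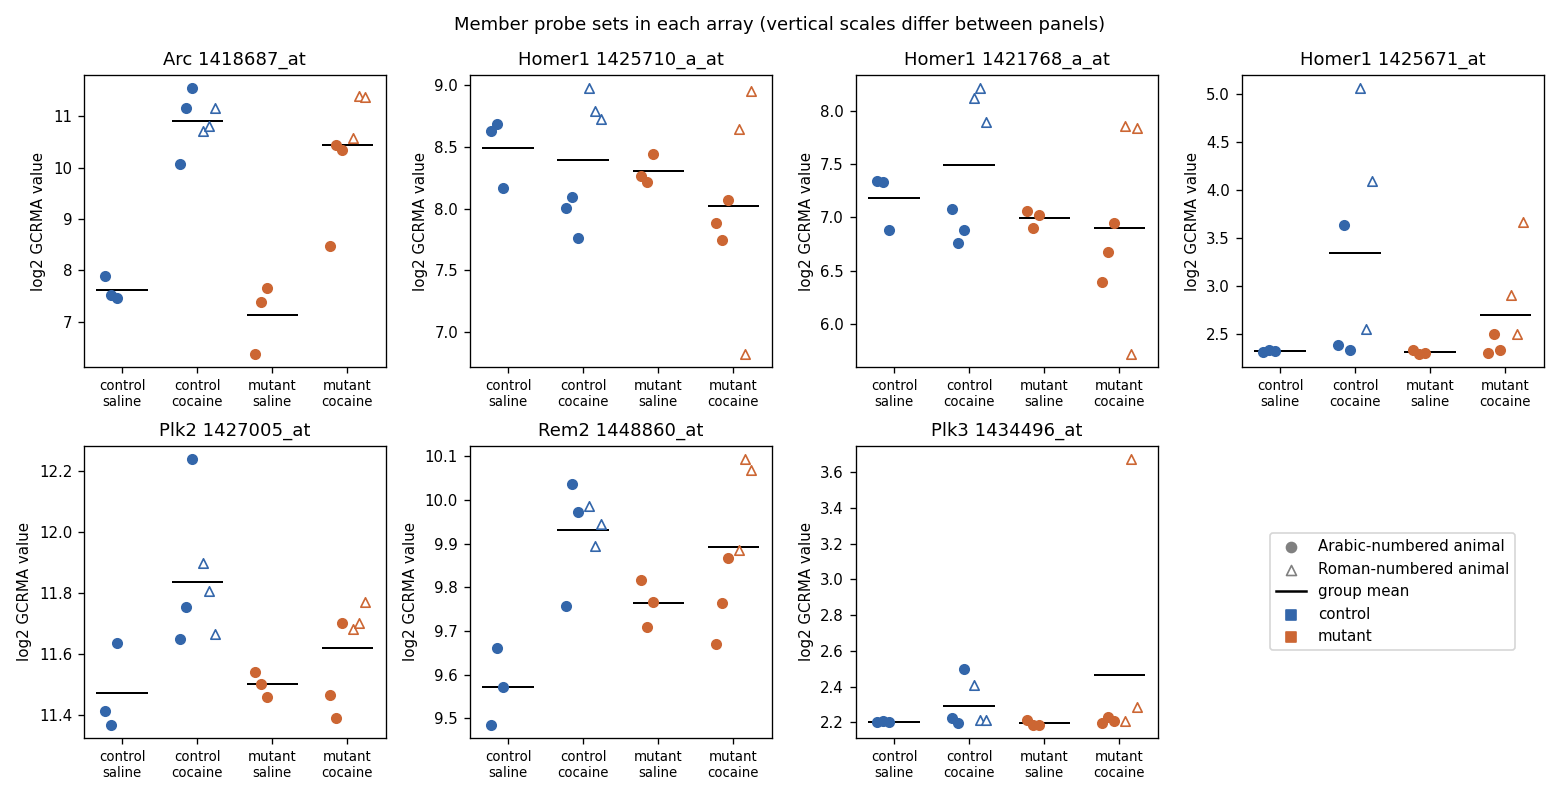
Each panel plots the log2 GCRMA value of 1 member probe set in the 18 arrays, by group, with filled circles for Arabic-numbered and open triangles for Roman-numbered animals, blue for control, orange for mutant, and a line at the group mean. Arc separates all cocaine from all saline arrays, the Homer1 probe sets 1425710_a_at and 1421768_a_at separate the Roman-numbered from the Arabic-numbered control cocaine arrays, and Plk3 stays near 2.20 except in single arrays.

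The main fit gave both genotypes 1 common Roman minus Arabic shift. For Arc the cocaine arrays differed between the series by -0.03 among controls but by 1.36 among mutants. Under that common shift, the Arc response had the same estimated size in both genotypes, so this likeness depends on the shift being shared. It was 2.96 ± 0.49 (SE, adjusted p = 0.0220) in control mice and 2.96 ± 0.49 (adjusted p = 0.0418) in mutant mice, where limma called 14 (0.11%) and 6 (0.0473%) probe sets. The difference between those responses was 0.01 ± 0.64, with an interval from -1.36 to 1.37, so differences of more than 2-fold in either direction lie inside it. With the Arabic-numbered arrays alone, where no shift is fitted, the same difference was -0.69 ± 0.72 (adjusted p = 0.966). The call in mutant mice depended on single arrays: it was kept without mutant cocaine replicate 1 (3.50, adjusted p = 2.76e-04), without mutant cocaine replicate 5 (2.89, 0.0272) and without control cocaine replicate 3 (2.85, 0.0308), and lost without any 1 of the other 15. With blocks of consecutive animal numbers in place of the series the adjusted p was 0.0774 in control and 0.127 in mutant mice, and with a replicate block it was 0.0644 in mutant mice. In control mice the call was also lost without control cocaine replicate 2 or 3 or any 1 control saline array, with adjusted p up to 0.140. Averaged over the genotypes it was kept whichever array was left out, with log2 differences from 2.74 to 3.32.

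Within the Arabic-numbered animals alone, where saline and cocaine were both run, Arc was higher after cocaine by 3.30 (9.87-fold) in control and by 2.61 (6.13-fold) in mutant mice. The mutant estimate did not pass the threshold in those 12 arrays (adjusted p = 0.0964). After cocaine the Arabic-numbered mutant mice were lower in Arc than control mice by a log2 difference of -1.17, whereas in the Roman-numbered mice the same difference was 0.21. Pooled, it was -0.48 ± 0.37 (adjusted p = 0.546), -0.26 without control cocaine replicate 3, and -0.12 without mutant cocaine replicate 1, whose 8.48 was the lowest Arc value of the 12 cocaine arrays. In saline mice the mutant minus control difference of Arc was -0.49 ± 0.53 (adjusted p = 1.00), which was -0.10 without mutant saline replicate 1 and -0.75 without mutant saline replicate 3. No genotype difference in Arc was detectable beyond the spread between animals.

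The genes whose pattern over the 18 arrays was closest to Arc were named by the mean absolute difference of values centred on each gene's own mean. The order was Junb (0.278), Egr4 (0.308), Egr2 (0.375), Fosb (0.387) and Tiparp (0.419), against a median of 1.60 over the other 11744 named probe sets. Junb and Fosb are AP-1 subunits, Egr2 and Egr4 are zinc finger transcription factors, and Tiparp is an ADP-ribosyltransferase. Their cocaine responses averaged over genotypes were 2.57 for Junb, 2.30 for Egr4, 3.37 for Egr2, 3.01 for Fosb and 2.08 for Tiparp. These profiles share the same 18 RNA samples, and likeness was not tested. Mutant cocaine replicate 1, where Arc was low, was the lowest cocaine array for all 5. The 5 genes were chosen for likeness to Arc over these same arrays. Their cocaine responses and this low array are therefore not separate evidence.

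**Figure D2:**
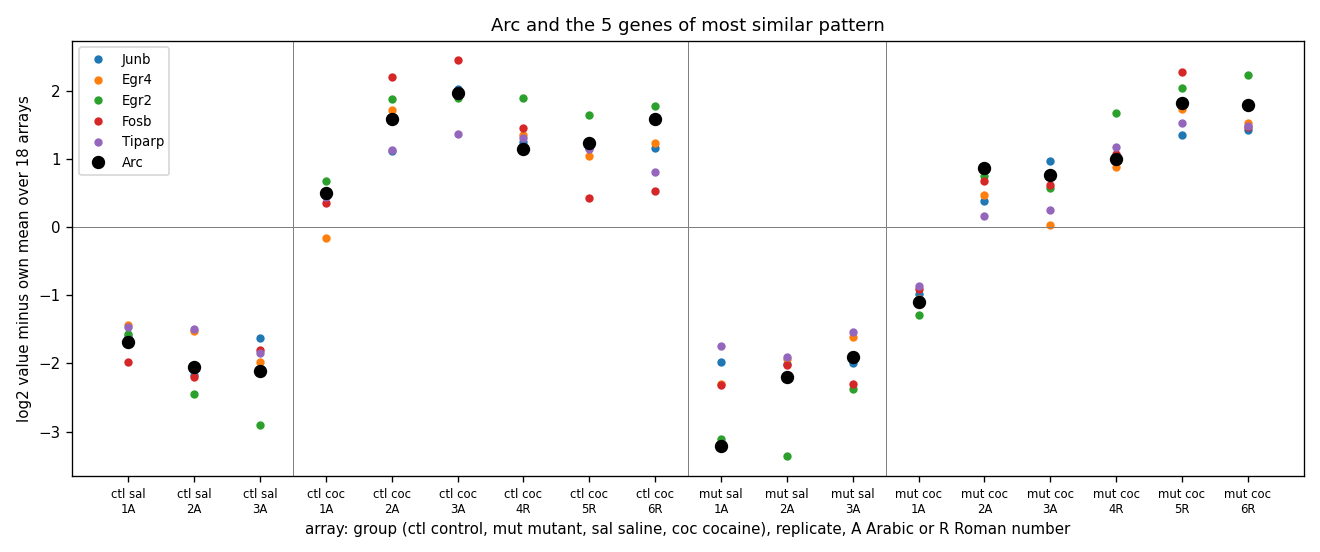
The plot gives, for each of the 18 arrays on the horizontal axis, the log2 value minus the gene's own mean over the 18 arrays, with Arc in black and Junb, Egr4, Egr2, Fosb and Tiparp in colour. All 6 genes lie below 0 in every saline array and, in mutant cocaine replicate 1, also below 0.

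Homer1 was on average not higher after cocaine in the Arabic-numbered animals, in either probe set that passed the filter. All saline animals were Arabic-numbered, so cocaine and numbering cannot be told apart in the Roman-numbered animals. Probe set 1425710_a_at read 8.63, 8.69 and 8.17 in saline control mice and 8.27, 8.21 and 8.44 in saline mutant mice. In the Arabic-numbered cocaine animals it read 8.01, 8.09 and 7.76 in control and 7.88, 7.75 and 8.07 in mutant mice. These 6 arrays all lay below the 6 saline arrays, which held for 1.62% of the probe sets tested in that direction. The Roman-numbered cocaine animals read 8.98, 8.79 and 8.73 in control and 8.65, 6.82 and 8.96 in mutant mice, so 5 of these 6 lay above every Arabic-numbered cocaine array. The 6.82 is mutant cocaine replicate 5.

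The cocaine response of 1425710_a_at was a log2 difference of -0.47 ± 0.26 (interval -1.03 to 0.08, adjusted p = 0.859), which did not pass the threshold. Without mutant cocaine replicate 5 the estimate was again -0.47 and passed (adjusted p = 0.0163), as 1 of 362 probe sets called among 12654. With the 12 Arabic-numbered arrays only, it passed too (adjusted p = 0.0258), as 1 of 426 called among 12535. The averaged estimate is the same in these fits, since saline was run only on Arabic-numbered animals, and the spread differs. By genotype, the Arabic-numbered differences were -0.54 in control and -0.41 in mutant mice, without overlap in either genotype, a downward separation found for 7.39% and 12.2% of probe sets.

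Probe set 1421768_a_at read 7.34, 7.34 and 6.88 in saline control mice and 7.06, 6.90 and 7.02 in saline mutant mice. After cocaine, the Arabic-numbered animals read 7.08, 6.76 and 6.88 in control and 6.39, 6.68 and 6.95 in mutant mice, which overlapped saline. The Roman-numbered animals read 8.12, 8.22 and 7.90 in control and 7.86, 5.71 and 7.85 in mutant mice, with 5.71 again in replicate 5. The cocaine response, which rests on the Arabic-numbered animals, was -0.30 ± 0.28 (limma, adjusted p = 0.874). Over all arrays, the group means were 7.50 after cocaine and 7.19 after saline in control mice, and 6.91 and 6.99 in mutant mice. In control cocaine mice both probe sets were higher in all Roman-numbered than in all Arabic-numbered arrays, by 1.17 for 1421768_a_at and 0.88 for 1425710_a_at, a separation upward that 14.7% of probe sets showed. Over both genotypes the Roman minus Arabic difference was 0.82 ± 0.28 for 1421768_a_at (adjusted p = 0.0955) and 0.56 ± 0.26 for 1425710_a_at (adjusted p = 0.203), while 6.16% of probe sets were called. Without mutant cocaine replicate 5, a fit added after the data were seen, these became 1.17 ± 0.11 (limma, adjusted p = 1.77e-06) and 0.89 ± 0.10 (adjusted p = 1.09e-05), and 29.8% of probe sets were called.

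The level of both Homer1 probe sets moved with the actin 3′ minus 5′ difference. That difference averaged 2.20 ± 0.19 (SD, n = 6) in saline arrays, 2.38 ± 0.17 (n = 6) in Arabic-numbered cocaine arrays and 1.70 ± 0.13 (n = 5) in Roman-numbered cocaine arrays other than mutant replicate 5, which was at 3.59. Homer1 was high in the Roman-numbered arrays, where the actin difference was small, and lowest in the array where it was greatest. With the actin difference as a term in the fit, a setting added after the data were seen, the response of 1425710_a_at was -0.30 ± 0.10 (unadjusted p = 0.00660, adjusted p = 0.491) and that of 1421768_a_at was -0.11 ± 0.09 (adjusted p = 0.857).

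**Figure D3:**
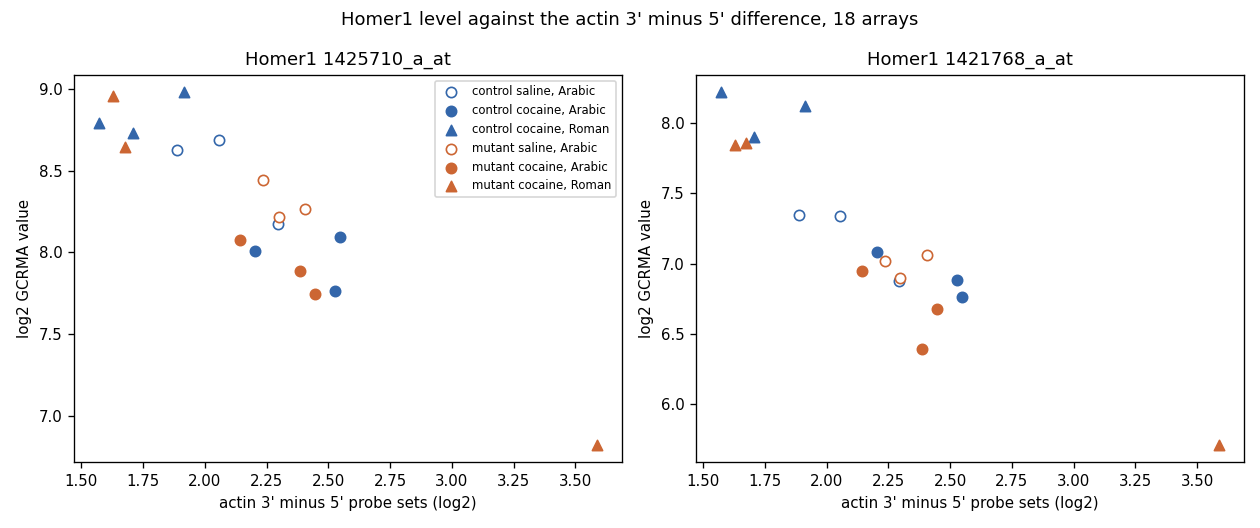
Each point is 1 of the 18 arrays, with the actin 3′ minus 5′ difference (log2) on the horizontal axis and the Homer1 log2 value on the vertical axis, for 1425710_a_at on the left and 1421768_a_at on the right. Triangles are Roman-numbered, filled circles Arabic-numbered cocaine and open circles saline arrays; mutant cocaine replicate 5 lies alone at 3.59 with the lowest Homer1 value in both panels.

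The Homer1 probe sets were then compared with each other, since transcripts of this gene can respond differently; the annotation used here does not say which transcript each probe set detects. In the Arabic-numbered animals, the cocaine response of 1421768_a_at minus that of 1425710_a_at was 0.18 (log2), with an exact permutation p of 0.125 over 400 relabellings within genotype, two-sided, where the smallest possible p is 0.005. Over the cocaine arrays the genotype difference of 1421768_a_at minus that of 1425710_a_at was -0.22 (exact permutation p = 0.100, relabelled within each numbering series). Neither difference passed. Probe set 1425671_at read between 2.29 and 2.34 in all 6 saline arrays, which is the floor of the values. After cocaine it ran from 2.34 through a median of 3.10 to 5.06 in control mice and from 2.30 through a median of 2.50 to 3.67 in mutant mice, and exceeded a log2 value of 4 in 2 arrays, both Roman-numbered controls. Its response minus that of 1425710_a_at was 0.74 (exact permutation p = 0.005, the smallest these relabellings can give, and 0.01 over 2 pairs). As 1425671_at was at the floor in saline and 1425710_a_at was lower after cocaine, that value does not measure a rise of 1425671_at.

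Plk2, the kinase, had no called difference in any contrast. It read 11.41, 11.37 and 11.64 in saline control mice and 11.54, 11.50 and 11.46 in saline mutant mice. After cocaine it ran from 11.65 through a median of 11.78 to 12.24 in control mice. In mutant mice it ran from 11.39 through a median of 11.69 to 11.77, overlapping saline. The lowest control value lay just above the highest saline value, 11.64, and the share of probe sets separating this way was not computed. The cocaine response was 0.34 ± 0.12 in control mice (unadjusted p = 0.0143, adjusted p = 1.00), 0.09 ± 0.12 in mutant mice (adjusted p = 0.833) and 0.21 ± 0.09 averaged (unadjusted p = 0.0345, adjusted p = 0.859), and none passed. An unadjusted p below 0.05 was found for 5.09% of all probe sets averaged over genotypes, 2.6% in control mice and 6.95% in the mutants. After cocaine the mutant mice were lower by -0.22 ± 0.09 (unadjusted p = 0.0321, adjusted p = 0.427), which was -0.36 in Arabic-numbered and -0.07 in Roman-numbered animals. Without control cocaine replicate 3, the array at 12.24, the response was 0.19 in control mice and 0.12 averaged, and the mutant minus control difference after cocaine was -0.12.

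Rem2, the calcium channel inhibitor, read 9.48, 9.66 and 9.57 in saline control mice and 9.82, 9.71 and 9.77 in saline mutant mice, so all 3 mutants lay above all 3 controls, as did 7.19% of probe sets. After cocaine it ran from 9.76 through a median of 9.96 to 10.04 in control mice. These values lay above the saline controls, a separation whose share over all probe sets was not computed, and overlapped the saline mutants. In mutant mice it ran from 9.67 through a median of 9.88 to 10.09, overlapping the saline mutants. The cocaine response was 0.29 ± 0.08 in control mice (unadjusted p = 0.00295, adjusted p = 0.711) and 0.06 ± 0.08 in mutant mice (adjusted p = 0.834). Averaged over the genotypes it was 0.18 ± 0.06 (unadjusted p = 0.0129, adjusted p = 0.845). The saline difference, mutant minus control, was 0.19 ± 0.09 (unadjusted p = 0.0475, adjusted p = 1.00), and after cocaine it was -0.04 ± 0.06 (adjusted p = 0.779).

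Arc, Plk2 and Rem2 (and Homer1 1425671_at, near the floor) were higher in all 3 Arabic-numbered control cocaine arrays than in all 3 saline controls, a separation 5.33% of tested probe sets showed in that direction. Of these, Arc alone also separated in Arabic-numbered mutant mice (7.42% of probe sets). For Plk2 and Rem2 the Arabic-numbered responses were 0.41 and 0.35 in control mice but 0.02 and 0.00 in mutant mice. The genotype by cocaine interaction was -0.25 ± 0.16 for Plk2 (unadjusted p = 0.146; -0.15 without control cocaine replicate 3) and -0.23 ± 0.11 for Rem2 (unadjusted p = 0.0503), with adjusted p of 0.992 for both. With Arabic-numbered arrays only, the interaction was -0.39 for Plk2 (unadjusted p = 0.0590) and -0.35 for Rem2 (unadjusted p = 0.0108), with adjusted p of 0.966 for both. Limma called 0 of 12674 probe sets for this interaction, and an ordinary linear model also 0. In the main fit 340 (2.68%) had an unadjusted p below 0.05, with 0 of the 5 member probe sets among them. This share was not computed for other fits. With the actin term the unadjusted limma p was 0.0150 for Homer1 1421768_a_at (-0.40 ± 0.15) and 0.0328 for Rem2 (adjusted p = 0.734 for both). With array weights it was 0.00815 for Rem2 and 0.0484 for Plk2 (adjusted p = 0.839 for both). The responses of Plk2 and Rem2 therefore were not shown to differ between the genotypes.

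**Figure D4:**
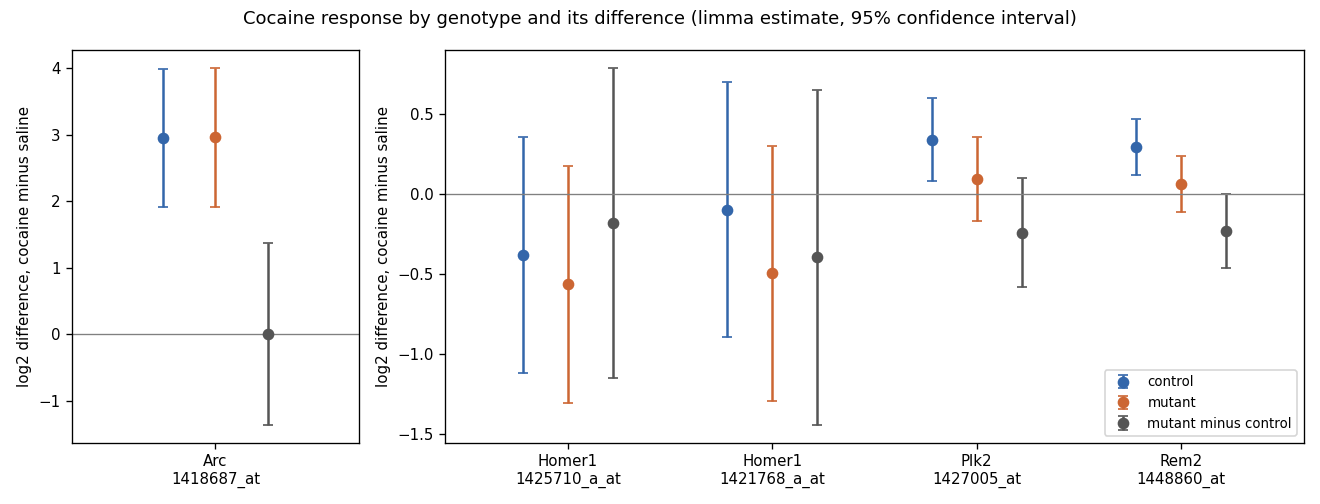
The points are limma estimates of the cocaine minus saline log2 difference in control (blue) and mutant (orange) mice and of the mutant minus control difference of those responses (grey), with bars for the 95% confidence interval, for the 5 member probe sets that passed the filter. Arc stands near 2.96 in both genotypes on its own scale, and the grey interval of every probe set crosses 0.

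For the direct genotype comparisons, limma called 0 probe sets after saline and 0 after cocaine, and an ordinary linear model also 0. At an unadjusted p below 0.05, 2.76% of probe sets differed after saline, among them Rem2 of the 5 members, and 11.6% after cocaine, among them Plk2. The Homer1 probe set 1421768_a_at was lower in mutant mice after cocaine by -0.59 ± 0.28 (unadjusted p = 0.0544, adjusted p = 0.432), and in the Roman-numbered animals all 3 mutant arrays lay below all 3 control arrays, as did 7.15% of probe sets. Without mutant cocaine replicate 5 its pooled difference was -0.23. For 1425710_a_at the difference was -0.37 ± 0.26 (adjusted p = 0.522), and -0.04 without that array.

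Plk3 stayed at the floor of the values in this tissue. Its probe set lay between 2.18 and 2.21 in saline mice and between 2.19 and 2.50 in 11 of the 12 cocaine arrays. The remaining array, mutant cocaine replicate 5, read 3.68, which is still under the log2 value of 4 used as the filter.

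Transcripts of the proteins these members act with gave no call, where at most 0.221% of all probe sets were called in any of the 6 contrasts, so a count of 0 is near the background for lists of this size. Of the listed Homer1 partners, such as metabotropic receptors, Shank scaffolds and channels, 6 of 16 were measured and 0 were called, with a median cocaine difference of 0.04. Shank3, a postsynaptic scaffold, differed by 0.01 ± 0.08, and Trpc1, a cation channel that binds Homer, by -0.12 ± 0.06 (adjusted p = 0.859). Of the Arc partners and AMPA receptor genes 16 of 18 were measured and 0 called, with a median of -0.02; Camk2b, a calcium-dependent kinase subunit that binds Arc, differed by -0.04 ± 0.04 and Wasf1, an actin regulator, by -0.01 ± 0.06. Single members of that list, picked for their values, differed more: Camk2a by -0.63 ± 0.41 (adjusted p = 0.859) and the AMPA receptor subunit Gria3 by -0.36 ± 0.12 (unadjusted p = 0.0100, adjusted p = 0.819), the only 1 of 16 with an unadjusted p below 0.05. Of the polo-like kinases and Plk2 substrates 8 of 15 were measured and 0 called; Nsf, a membrane fusion ATPase, differed by -0.06 ± 0.06 and Rap1gap, which switches off Rap1, by 0.05 ± 0.05. Of the RGK proteins and calcium channel subunits 9 of 17 were measured and 0 called, with a median of -0.01; the channel subunits Cacna2d3 and Cacnb4 differed by -0.04 ± 0.06 and -0.01 ± 0.05. The median over all 12674 probe sets was 0.00.

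Some other activity-induced effectors also rose after cocaine. Of 20 listed, 13 were measured and 3 rose after cocaine averaged over genotypes (0.221% of all probe sets were called), with a list median of 0.45 and all 13 differences above 0. The list was chosen with earlier results of these data known, so these counts are not an independent test. Dusp1, a MAP kinase phosphatase, rose by 2.09 ± 0.29 (limma, adjusted p = 0.00225), Tiparp by 2.08 ± 0.26 (adjusted p = 8.26e-04) and Gadd45b, a stress-induced gene linked to DNA demethylation, by 1.56 ± 0.28 (adjusted p = 0.0239). In control mice Dusp1 (2.26) and Tiparp (2.23) passed, where 0.11% of probe sets did. In mutant mice 0 of 13 passed, where 0.0473% of probe sets did, and 7 had an unadjusted p below 0.05, against 6.95% of probe sets; the mutant differences were 1.93 for Dusp1, 1.93 for Tiparp and 1.44 for Gadd45b. For mutant minus control, 0 of 13 were called. Of the 13, 1 was above 0 both after saline (median -0.17, all probe sets 0.01) and after cocaine (median -0.24, all probe sets 0.01). The interaction had a median of -0.07 (all probe sets -0.01). After cocaine the list mean was 8.73 in Arabic-numbered mutants against 9.25 in controls. In the Roman-numbered animals it was 9.24 in mutants against 9.20 in controls, so the lower mutant level was not seen there. None of the genes on the marker lists for medium spiny neurons, cortical neurons, astrocytes, oligodendrocytes, microglia or endothelial cells was called in any contrast, which for 3 to 9 measured genes a list is near the background of at most 0.221%. The mean over the 8 measured spiny neuron markers stayed between 11.9 and 12.3 in all 18 arrays.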

How the data were processed

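The deposited table holds log2 values for 22690 probe sets in 18 arrays, computed by the authors by GCRMA under R 2.4.1, per the submitters' processing notes, with settings not given in the sources used here. GCRMA corrects background by probe sequence and scales the arrays together, so fold changes are between fitted log2 values and dim probe sets sit at a floor. Members and gene lists were chosen with earlier results of these data known. The 12674 probe sets over a log2 value of 4 on 3 or more arrays, leaving out 64 control probe sets, were tested with limma 3.58.1 in R 4.3.3, on group and numbering series, with an intensity trend and Benjamini-Hochberg adjustment over all tested probe sets at 0.05. The series term was 1 shift shared by both genotypes. Each animal is 1 array, so the number of arrays limits the precision. Of all probe sets 89.9% carried 1 gene symbol. Named beside the members were up to 4 called genes per list, or the 2 of highest level where none was called, Camk4, and the 5 genes most like any member probe set that passed the filter and whose group means span at least 1 log2 unit, which only Arc met. Replicate numbers do not pair the animals. On simulated data with these 12674 probe sets, 95 of 100 changes of log2 1 and 100 of 100 of log2 2 were called for cocaine averaged over genotypes, and 13 of 12474 unchanged ones. The simulated noise was independent, with no series shift and no array like mutant cocaine replicate 5. These shares therefore do not measure power in the real data.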

Additional observations from a re-analysis of the deposited data

Results flagged for a closer look

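Arc in mutant cocaine replicate 1 was the lowest of its 6 arrays at a log2 value of 8.48, and its gap to the next array took up 0.64 of the group's range. Plk3 in mutant cocaine replicate 5 was the highest of its 6 arrays at 3.68, with a gap of 0.94 of the range, in a group otherwise at the floor. Both were singled out because they stood far from the other animals of their group. Chance alone marks about 1 in 20 groups in this way, and 14 groups were looked at.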

How the results depend on the processing

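Arc averaged over genotypes stayed called under every alternative run on that contrast. Among the 5 tested member probe sets, the count called for cocaine averaged over genotypes was 1, and 2 (Arc and Homer1 1425710_a_at) with Arabic-numbered arrays alone and with array weights; leaving out 1 array gave 1 to 2. In control mice the count of 1 became 0 with blocks of consecutive animal numbers, no filter on dim probe sets and an ordinary linear model, and leaving out 1 array gave 0 to 1. In mutant mice the count of 1 became 0 with those 3 settings, with the replicate block, with Arabic-numbered arrays alone and without an intensity trend, and leaving out 1 array gave 0 to 1. The genotype and interaction counts were 0 throughout. The replicate block (replicate number in place of the series) gave Arc 2.96 ± 0.41 with limma adjusted p = 0.0644 in mutant mice and changed no other member's call. Residuals of the main fit correlated on average between -0.39 and 0.34 among same-numbered arrays. By these residuals 4 of 18 arrays were closest to their own number, so the numbers were not taken as pairs. Leaving out 1 array moved the difference between the Homer1 probe sets from 0.13 to 0.25 (cocaine response) and from -0.29 to -0.15 (genotype), passing at exact p = 0.035 without mutant cocaine replicate 1 and at 0.04 without control cocaine replicate 2. The count over all probe sets for averaged cocaine was 28, and 67 with no series term, 16 with consecutive blocks, 17 with an ordinary linear model, 103 with array weights, 426 with Arabic-numbered arrays alone and 362 without mutant cocaine replicate 5; the cause was not tested.

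Directions reversed in uncalled results. With no series term Homer1 1421768_a_at was 0.11 (averaged) and 0.31 (control). With the actin term it was 0.0936 in control mice and 0.0582 for mutant against control saline, where 1425710_a_at was 0.0397. For the interaction, Arabic-numbered arrays alone gave -0.69 for Arc and 0.14 for 1425710_a_at, and array weights -0.18 and 0.16. For mutant against control after cocaine, Roman-numbered arrays alone gave 0.21 for Arc and 0.0747 for Rem2, and centring each array on its median gave 0.00048 for Rem2. Leaving out 1 array moved the interaction from -0.38 to 0.37 for Arc and from -0.33 to 0.14 for 1425710_a_at, the control response of 1421768_a_at from -0.28 to 0.00783, and the saline genotype difference of Plk2 from -0.0249 to 0.11. Signal near the floor limits Plk3 and Homer1 1425671_at, which the filter left out of the limma tests.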
